A study of Homo sapiens with 12 samples.

Results

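RNA was sequenced from HCT116 cells, a human colon carcinoma line, that had received the siRNA against PFDN5 (siPFDN5) and were collected before serum or 90 min after it. The 4 libraries labelled siPFDN5, replicates 1 and 2 before and replicates 1 and 2 after serum, were chosen by their sample titles out of 12 in the series. The other 8 libraries were from cells given a control siRNA (siControl) or an siRNA against PFDN2 (siPFDN2), also with 2 libraries before and 2 after serum. In all 6 groups the siRNA was delivered with Oligofectamine, serum was withdrawn from 24 h after the siRNA for 48 h, and the groups labelled post-stimulation then had serum for 90 min. No group was left without siRNA or without starvation, PFDN5 was targeted by 1 siRNA sequence, and the labels do not say whether replicates were separate cultures, so p-values measure only the spread between these libraries.

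Prefoldin is a complex of 6 kinds of subunit that receives newly made actin and tubulin chains and hands them to a cytosolic chaperonin, and PFDN2 and PFDN5 are beta- and alpha-type subunits of it. Prefoldin subunits have also been found in the nucleus, where a role in transcription elongation and the splicing that accompanies it has been described in yeast and human cells. When serum is given back to starved cells, kinases of the MAPK cascade and the actin-sensing and YAP pathways switch on immediate-early genes from promoters that hold binding sites for SRF, CREB or AP-1, and the products of these genes then act on a second wave. Reads in introns come mostly from RNA that has not been spliced yet, so intronic counts follow recent transcription more closely than exon counts do.

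The siPFDN5 strand given in the labels is printed here because it shows where in the target it lies. Lower case marks the 7 bases in the exon before a splice junction and capitals the 12 bases in the exon after it.
siPFDN5: agagaagACAGCUGAGGAU
This 19-base sequence was found in 11 of 206694 annotated transcripts, and all 11 belonged to PFDN5. On GRCh38 it spans chr12:53297918-53298056 on the plus strand, intron included, within the coding sequence of protein-coding PFDN5 transcripts.

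Exon counts of PFDN5 (ENSG00000123349, chr12:53295291-53299450), given as counts-per-million (CPM), were 52.2 and 55.5 in the siPFDN5 libraries before serum, against 94.1 and 84.3 in siControl. After serum they were 78.0 and 79.6 in siPFDN5 and 87.3 and 90.1 in siControl. The target thus stood clearly under siControl before serum, with no overlap, and only a little under it after serum. Neither difference from siControl passed the test (log2 -0.73 before serum, adjusted p = 0.18, and -0.17 after it, adjusted p = 0.51). Between the siPFDN5 groups PFDN5 itself rose, by 0.55 on the log2 scale (SE 0.13, adjusted p = 0.039), a call that was lost in 10 of the 12 fits made with a library removed, where the change was 0.51 to 0.60. In what follows, any direction drawn for these cells after serum is therefore that of the libraries labelled siPFDN5 after serum. PFDN2 stood at 24.2 and 22.8 CPM before and 24.9 and 31.6 CPM after serum in siPFDN5, above every siControl library (11.1 to 20.3 CPM). The other 4 subunit genes PFDN1, VBP1, PFDN4 and PFDN6 changed by 0.32, 0.45, 0.38 and 0.23 on the log2 scale and did not pass the test. Without both siPFDN2 libraries before serum, 4 of the 6 subunit genes were called higher with serum and 0 lower (all genes 19.9% and 15.3%). Against siControl, that fit called 2 higher and 1 lower before serum (5.55% and 6.04%). After serum it called 5 higher and 0 lower (17.3% and 11.6%).

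Serum induced early genes strongly in the siPFDN5 cells while intronic counts, taken relative to exon counts, fell in many more genes than they rose in. On exon counts 678 of 24889 genes tested were higher after serum and 372 lower at an adjusted p under 0.05 (2.72% and 1.49%), and the median gene changed by -0.01 on the log2 scale. On intronic counts 124 of 4988 genes were higher and 2511 lower (2.49% and 50.3%), with a median change of -0.96, which is 0.514 times the level before serum. The number of exon calls depended on other groups of the series, with which siPFDN5 shares 1 estimate of the spread. Leaving out siPFDN2 before replicate 1 or replicate 2 gave 8538 and 8562 calls. Without both of those libraries 4848 genes were higher and 3727 lower (19.9% and 15.3% of 24422 tested), and 677 of the 678 higher and 367 of the 372 lower genes were among them. Without siControl before replicate 1 or 2, siPFDN2 after replicate 1 or 2, or any of the siPFDN5 libraries, the counts of higher and lower exon calls fell to 383 and 154, 381 and 152, 352 and 133, 342 and 109, 202 and 14 (after 1), 201 and 18 (after 2), 166 and 19 (before 1), and 166 and 27 (before 2), in that order. Scaling by library size alone, which moved the median gene by -0.19, gave 388 higher and 855 lower, and upper-quartile scaling gave 475 and 413, so the split between higher and lower exon calls was not fixed by these data, and changes are given relative to the median gene.

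Total exon counts were 46158398 and 51508287 in the siPFDN5 libraries before serum and 67144889 and 77282247 after it, within the series' range of 46158398 to 114454288. Replicates of siPFDN5 agreed closely, with an SD of the log2 difference between replicates of 0.104 before and 0.138 after serum, against 0.704 in siPFDN2 before serum. Markers of colon epithelium summed to 2506 and 2513 CPM before and 3611 and 3646 CPM after serum. EPCAM and KRT8 were expressed, while CDX1 and LGALS4 were near 0. Markers of fibroblasts, leukocytes, endothelium and neuroendocrine cells summed to at most 12.4, 6.64, 1.25 and 1.51 CPM in any siPFDN5 library, with POSTN, CD3E and INSM1 at 0 in all 4. In bulk RNA of this kind, fewer cells of a type and less RNA per cell cannot be told apart.

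Promoters of 4 genes are shown, because EGR1 and SRF are classical SRF targets that parted in this experiment, and DUSP1 and CXCL8 were among the strongly induced genes with a CREB-type or an AP-1 site. Each runs from 250 bases before to 50 after the start of the RefSeq gene on GRCh38.p14, on the strand of the gene, with the motif matches in capitals. Both strands were searched for the CArG box, bound by SRF, for the CREB site TGACGTCA and for the AP-1 site TGANTCA; no stretch of the CREB site matches the AP-1 site.
EGR1 (chr5:138465229-138465528, plus strand, CArG boxes starting 105 and 83 bases before the start): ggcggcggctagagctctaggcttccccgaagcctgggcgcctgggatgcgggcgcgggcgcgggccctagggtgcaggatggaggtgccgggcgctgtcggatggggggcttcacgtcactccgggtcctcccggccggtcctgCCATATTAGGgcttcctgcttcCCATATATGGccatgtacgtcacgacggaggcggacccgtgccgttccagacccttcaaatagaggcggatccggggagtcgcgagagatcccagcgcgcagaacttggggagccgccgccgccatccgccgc
SRF (chr6:43171019-43171318, plus strand, CArG boxes 30 and 10 bases before): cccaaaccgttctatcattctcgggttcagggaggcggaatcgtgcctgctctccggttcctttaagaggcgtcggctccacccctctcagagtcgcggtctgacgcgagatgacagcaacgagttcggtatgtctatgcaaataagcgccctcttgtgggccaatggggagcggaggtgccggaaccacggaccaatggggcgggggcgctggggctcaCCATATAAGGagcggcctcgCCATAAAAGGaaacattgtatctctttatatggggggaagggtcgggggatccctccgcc
DUSP1 (chr5:172771146-172771445, minus strand, CREB site 125 bases before): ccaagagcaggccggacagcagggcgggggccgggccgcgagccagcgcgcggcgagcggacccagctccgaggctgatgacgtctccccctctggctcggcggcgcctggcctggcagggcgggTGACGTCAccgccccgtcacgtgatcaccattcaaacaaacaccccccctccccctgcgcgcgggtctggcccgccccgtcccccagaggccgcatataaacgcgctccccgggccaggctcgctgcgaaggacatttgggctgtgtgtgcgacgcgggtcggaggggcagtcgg
CXCL8 (chr4:73740319-73740618, plus strand, AP-1 site 137 bases before): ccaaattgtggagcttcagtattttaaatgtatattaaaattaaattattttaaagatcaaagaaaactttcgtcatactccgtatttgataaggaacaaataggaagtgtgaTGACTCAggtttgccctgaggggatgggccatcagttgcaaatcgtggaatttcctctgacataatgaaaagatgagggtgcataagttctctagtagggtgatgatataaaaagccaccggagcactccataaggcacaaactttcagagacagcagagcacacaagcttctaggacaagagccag
Of the 678 genes with higher exon counts 403 had a promoter in the RefSeq table, and 15 of these (3.72%) held a CArG box, 26 (6.45%) the CREB site and 43 (10.7%) the AP-1 site. Over all 27305 promoters the shares were 1.29%, 1.98% and 7.76%, and over the 12309 matched genes among those tested they were 1.07%, 2.92% and 5.14%. Of the 160 matched genes with lower exon counts 3, 0 and 4 held these motifs. These shares are a description of the letters in the window, not of binding.

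All 3 nuclear receptors of the NR4A family, orphan receptors that act as early response transcription factors, rose, NR4A3 the most. NR4A3 (ENSG00000119508, chr9:99821855-99866891) had 1.53 and 1.46 CPM of exon counts before and 328 and 349.7 after serum. Its 2 libraries after serum were far above the 2 before, a 227-fold change and the largest among the named genes (log2 7.83, SE 0.18, adjusted p = 6.4e-09). NR4A2 went from 18.7 and 19.8 to 322 and 383 CPM (log2 4.19, adjusted p = 2.3e-07). NR4A1 rose from 14.1 and 14.5 to 419.7 and 553 CPM (log2 5.09, adjusted p = 1.6e-05); it contains AC025259.3, whose reads cannot be told apart from its own in counts made without strand.

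The AP-1 family, whose FOS and JUN type proteins pair to bind the AP-1 site, responded unevenly. FOSB had 4.01 and 3.45 CPM before and 127 and 168 after serum, with a log2 change of 5.31 (SE 0.37, adjusted p = 2.2e-05). FOSL1 rose from 32.8 and 34.5 to 150.2 and 186 CPM and JUN from 12.5 and 13.1 to 72.4 and 82.0 CPM (log2 2.32 and 2.60, adjusted p = 0.0013 and 0.0011). All libraries after serum exceeded those before in these 3 genes. FOS, the first of the family to respond to serum in many cells, stood at 12.5 and 13.2 CPM before and at 24.1 and 31.0 after serum. The groups did not overlap, yet the log2 change of 1.10 (SE 0.31) did not pass the test (adjusted p = 0.074). In siControl FOS stood at 8.82 and 7.15 CPM before and at 88.0 and 43.3 CPM after serum.

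Among the EGR zinc finger factors, EGR1 stood apart from its relatives. EGR1 (ENSG00000120738, chr5:138465490-138469315) had 58.8 and 71.8 CPM before and 57.0 and 89.5 after serum. The libraries overlapped, and the log2 change was 0.17 (SE 0.37, adjusted p = 0.83), which became -0.19 without siPFDN5 after replicate 2. In siControl EGR1 was at 31.3 and 19.5 CPM before and at 177 and 101 after serum, and in siPFDN2 at 18.0 and 34.3 before and at 96.6 and 126 after serum. The siPFDN5 libraries before serum thus held more EGR1 counts than any other library before serum, and those after serum fewer than any other after serum. EGR2 rose from 2.63 and 2.56 to 28.9 and 38.1 CPM (log2 3.69, adjusted p = 9.7e-06) and EGR3 from 3.08 and 3.77 to 90.3 and 107 CPM (log2 4.85, adjusted p = 1.2e-06). Both EGR genes also started from more CPM than in siControl, where EGR2 had 0.914 and 0.921 and EGR3 1.51 and 1.16 CPM before serum. Before serum the edgeR test called no exon difference between siPFDN5 and siControl (0 of 24889 genes, with 2265 at an unadjusted p under 0.05), but without both siPFDN2 libraries before serum it called 1355 genes higher and 1474 lower in siPFDN5 (5.55% and 6.04% of 24422).

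Over the whole list of 35 immediate-early transcription factors, 34 were tested and 27 were higher and 0 lower on exon counts, beside 2.72% and 1.49% of all genes, with a median log2 change of 1.98. The call stayed for 19 of the 27 in each of the 12 fits made with a library removed, and the list's count ran from 19 to 29 over these fits. ATF3, a stress-responsive repressor, went from 14.9 and 15.2 to 323 and 357 CPM (log2 4.49, adjusted p = 2e-07). SRF itself rose from 31.3 and 34.0 to 147 and 161 CPM (log2 2.24, adjusted p = 0.00027), unlike EGR1, though both promoters hold a pair of CArG boxes. KLF5, a factor of proliferating intestinal epithelium, rose from 49.2 and 50.6 to 203 and 186 CPM (log2 1.96, adjusted p = 0.00066). MYC, a driver of growth, rose by 0.74 (adjusted p = 0.044), a call lost in 8 of the 12 fits. The 7 tested factors without a call were FOS, EGR1, JUND (0.66), IER2 (0.73), IER5 (0.19), HES1 (-0.17) and SNAI1 (-0.02), with log2 changes in brackets for those not given above. The same list had 28 genes higher in siControl and 26 in siPFDN2 (all genes 1.73% and 1.67%), with medians of 2.64 and 2.30.

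**Figure D1:**
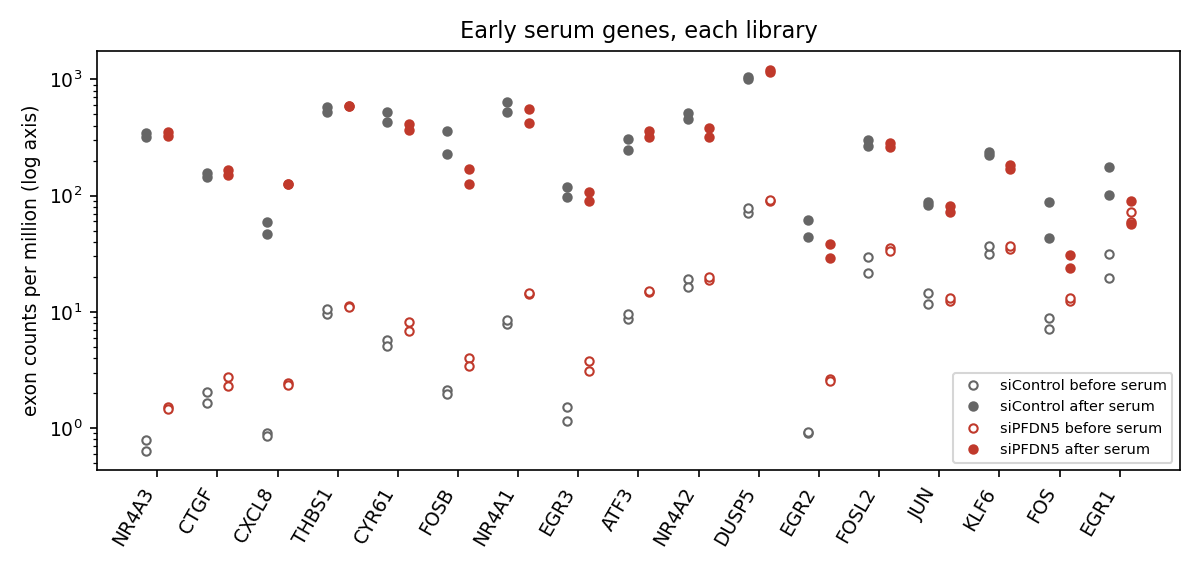
Exon CPM (log axis) of 17 early serum genes in each library, with open points before and filled points after serum, for siControl and siPFDN5. The siPFDN5 points after serum lie far above those before for NR4A3, CTGF and CXCL8, while for EGR1 (58.8 and 71.8 before, 57.0 and 89.5 after) they overlap.

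Targets of YAP and TEAD, which respond to the actin cytoskeleton and to serum lipids, held some of the largest changes. CTGF, a secreted matricellular protein, had 2.28 and 2.76 CPM before and 152 and 166 after serum, a 63.0-fold change (log2 5.98, SE 0.20, adjusted p = 7.7e-08). CYR61, its relative, rose 51.5-fold, from 6.91 and 8.21 to 364 and 415 CPM (log2 5.69, adjusted p = 2.7e-06). The groups were widely separated for both. NUAK2, a kinase, went from 3.73 and 4.01 to 41.9 and 46.2 CPM (log2 3.51, adjusted p = 6.6e-05), and F3, the tissue factor that starts coagulation, from 18.8 and 19.4 to 78.3 and 67.5 CPM. Of 22 tested targets 9 were higher and 0 lower (median 0.25; all genes 2.72% and 1.49%), and 8 of the 9 kept the call in each of the 12 fits. In siControl and in siPFDN2 8 targets were higher (all genes 1.73% and 1.67%).

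Of the genes of the actin cytoskeleton that SRF and its actin-binding cofactors control, 8 of 25 tested were higher, beside 2.72% of all genes, and 17 had no call. VCL, which encodes the adhesion protein vinculin, went from 205 and 204 to 472 and 443 CPM (log2 1.16, adjusted p = 0.0012). FHL2, a LIM protein, went from 53.5 and 49.7 to 160.0 and 159.5 CPM (log2 1.63, adjusted p = 0.0001). The median of the list was 0.56, with 0 genes lower and with TAGLN, ACTG1, TPM4, MYL9, CNN2 and WDR1 as the other higher ones; only VCL, FHL2 and TAGLN kept the call in each of the 12 fits. ACTB, the cytoplasmic actin gene, was at 1481 and 1566 CPM before and 2304 and 2461 after serum, with a log2 change of 0.65 that did not pass the test (adjusted p = 0.079). The list had 4 higher genes in siControl and 4 in siPFDN2, with medians of 0.35 and 0.18.

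Of 21 tested chemokines and NF-kB targets 12 rose, beside 2.72% of all genes, and 9 had no call. CXCL8, a chemokine that attracts neutrophils, rose 52.7-fold, from 2.42 and 2.33 to 126 and 125 CPM (log2 5.72, SE 0.26, adjusted p = 1.2e-06). The 2 libraries after serum lay close together and far above those before. NFKBIA, the inhibitor that NF-kB induces to shut itself off, went from 27.0 and 26.0 to 109 and 115 CPM (log2 2.08, adjusted p = 9.5e-06), and TNFAIP3, another inhibitor, from 3.04 and 3.53 to 27.7 and 32.8 CPM (log2 3.20, adjusted p = 1.4e-05). The list has 26 members, and those tested had a median of 1.46 with 0 lower; 7 of the 12 kept the call in each of the 12 fits; the other higher genes were BIRC3, CXCL1, CXCL2, CXCL3, CCL20, LIF, NFKBIE, NFKBIZ and RELB. The list had 10 higher genes in siControl (median 1.12) and 9 in siPFDN2 (median 1.08). CXCL8 stood higher in siPFDN5 than in siControl at both times (siControl 0.914 and 0.863 CPM before, 59.0 and 46.8 after), without passing the test of either difference (adjusted p = 0.19 and 0.11).

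Of 29 tested genes in a list of MAPK feedback and related signalling regulators 10 rose, 2 fell and 17 had no call. These counts stand beside 2.72% higher and 1.49% lower of all genes. Not all members are inhibitors of MAPK signalling, and PTGER4 and SOCS2 were among the higher ones. DUSP5, a nuclear ERK phosphatase (chr10:110497838-110511544), went from 89.6 and 91.1 to 1149 and 1209.8 CPM (log2 3.71, SE 0.13, adjusted p = 1.5e-07). DUSP1, a phosphatase of stress kinases, went from 8.03 and 7.11 to 44.7 and 46.3 CPM (log2 2.59, adjusted p = 2.5e-05). ERRFI1, which binds and inhibits EGFR, went from 544 and 535 to 1879.9 and 1684 CPM (log2 1.72, adjusted p = 0.00079). All libraries after serum exceeded those before for these 3 genes. Against this direction, SPRY1, a Sprouty inhibitor of receptor tyrosine kinase signalling, fell from 4.65 and 4.68 to 1.07 and 1.05 CPM (log2 -2.13, adjusted p = 0.00018) and LRIG3 from 14.8 and 14.7 to 6.85 and 6.98 CPM (log2 -1.09, adjusted p = 0.0034). The median of the list was 0.32, and 10 of the 12 calls stayed in each of the 12 fits.

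In the EGF family 3 ligands rose and 1 receptor fell among 12 tested ligands and receptors (all genes 2.72% and 1.49%), and 8 had no call. AREG, a ligand of EGFR, went from 218 and 232 to 980.2 and 926 CPM (log2 2.08, adjusted p = 6.6e-05), and HBEGF, another, from 5.93 and 6.31 to 25.4 and 25.5 CPM (log2 2.06, adjusted p = 1.3e-05). EREG rose from 830.2 and 822 to 2235 and 1923 CPM (log2 1.33, adjusted p = 0.048), a call lost in 10 of the 12 fits. EGFR, their receptor, fell from 167 and 159.7 to 94.5 and 101 CPM (log2 -0.74, SE 0.16, adjusted p = 0.036), a call lost in 6 of the 12 fits. In siControl the EGFR libraries overlapped (104 and 144 before, 138 and 117 after serum).

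Wound and matrix genes rose in part. PLAU, a plasminogen activator, went from 69.8 and 71.4 to 337 and 333 CPM (log2 2.25, adjusted p = 5.8e-06). THBS1, a matrix glycoprotein, went from 11.2 and 11.03 to 586 and 586 CPM (log2 5.72, adjusted p = 2.4e-08), but AC037198.2 and ENSG00000259279 overlap it on the other strand and share its reads. EDN1, a vasoactive peptide, rose from 0.265 and 0.0933 to 7.31 and 8.96 CPM (log2 5.52, adjusted p = 9.1e-06). LAMB3, a laminin chain, rose from 37.7 and 38.1 to 71.5 and 78.2 CPM (log2 0.98, adjusted p = 0.031), a call lost in 8 of the 12 fits. Of 18 tested members of 22, 8 were higher and 0 lower (all genes 2.72% and 1.49%), with a median of 0.93, and 6 of the 8 kept the call in each of the 12 fits.

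Genes with lower exon counts after serum included feedback genes of the Wnt pathway, which is active in HCT116 cells. AXIN2, a target that restrains the pathway, fell from 17.1 and 18.4 to 5.29 and 5.95 CPM (log2 -1.66, SE 0.20, adjusted p = 0.001) and kept the call in each of the 12 fits. RNF43, a ligase that removes Wnt receptors, fell from 81.5 and 79.3 to 39.7 and 41.9 CPM (log2 -0.98, adjusted p = 0.0082), a call lost in 4 of the 12 fits. DKK1, a secreted Wnt antagonist, went the other way, from 158 and 154 to 498 and 474 CPM (log2 1.64, adjusted p = 0.002). AXIN2 changed in the same direction in siControl and siPFDN2, by -2.15 and -2.23. Of 19 tested members 1 was higher and 3 lower (all genes 2.72% and 1.49%); EPHB3, the remaining one, lost the call in 10 of the 12 fits. CDKN1B, a cell cycle inhibitor that accumulates in starved cells, fell from 38.1 and 36.6 to 18.7 and 17.8 CPM (log2 -1.03, adjusted p = 0.0019). Of the 28 tested genes of starvation and FOXO factors 4 were higher (CITED2, TSC22D3, GADD45A and YPEL5) and 3 lower (CCNG2, PIK3IP1 and TRIB2). Only CITED2 kept the call in each of the 12 fits. The estimate was negative in 20 of the 28 genes, with a median of -0.37. Without both siPFDN2 libraries before serum 5 of the 28 were higher and 15 lower (all genes 19.9% and 15.3%).

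Of 12 tested long noncoding RNAs, not all of them confined to the nucleus, 3 were lower and 1 higher in the libraries labelled siPFDN5 after serum. These counts stand beside 1.49% and 2.72% of all genes, and 8 had no call (median -0.12). MALAT1, an RNA of splicing speckles, went from 1115 and 999.6 to 384 and 446 CPM (log2 -1.35, SE 0.27, adjusted p = 0.025), while it stood at 1135 and 739 before and 1346 and 888 after serum in siControl. NEAT1, the scaffold of paraspeckles, went from 127 and 99.0 to 32.1 and 37.7 CPM (log2 -1.69, SE 0.41, adjusted p = 0.048), and KCNQ1OT1, an imprinted antisense RNA, from 31.6 and 22.5 to 7.52 and 8.34 CPM (log2 -1.77, adjusted p = 0.032). The groups did not overlap in any of the 3. The call was lost without any single siPFDN5 library for all 3, with log2 values of -1.45 to -1.24 for MALAT1, -1.85 to -1.50 for NEAT1 and -1.98 to -1.50 for KCNQ1OT1, and for NEAT1 and KCNQ1OT1 also without either siControl library before serum or either siPFDN2 library after it, and for KCNQ1OT1 without siPFDN2 before replicate 1 (log2 -1.76). The higher one was CYTOR (log2 1.64). KMT2A, a histone methyltransferase of promoters, fell from 165 and 157 to 63.9 and 75.3 CPM (log2 -1.21, adjusted p = 0.034), and ZNF503, a zinc finger repressor, from 17.6 and 20.3 to 5.27 and 6.04 CPM (log2 -1.75, adjusted p = 0.018); both calls were lost without any single siPFDN5 library. The remaining named genes with lower exon counts were RF01871 and ENSG00000279576, which lie inside MALAT1 and share its reads, and ZIC2, ZSCAN20, HOXB6 and HOXB-AS3. Of the 12 named genes with lower counts, AXIN2 and ZSCAN20 kept the call in each of the 12 fits, as did all 12 named genes with higher counts.

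The counts of smaller groups stand beside 2.72% higher and 1.49% lower of all genes. Of 24 tested p53 targets 7 were higher and 0 lower, and 3 of the 7 kept the call in each of the 12 fits. The 7 included PMAIP1, a cell death gene (48.8 and 47.9 to 204 and 188 CPM), and PLK2, a kinase (72.5 and 70.2 to 411 and 387 CPM). Of 22 tested interferon-stimulated genes 3 were higher, namely ISG15, a ubiquitin-like protein (48.5 and 48.5 to 188 and 197 CPM), OASL (5.72 and 6.34 to 32.8 and 34.0 CPM) and ISG20, and 2 of the 3 kept the call in each of the 12 fits. Of 25 tested genes of the cholesterol list 3 were higher, among them HMGCS1, an early enzyme of the synthesis (121 and 127 to 327 and 295 CPM), and INSIG1, which holds back the pathway, and 1 of the 3 kept the call. MCL1, a survival protein of the growth list, went from 164 and 164 to 421 and 419 CPM. In the lists of ribosome biogenesis and heat shock 1 of 30 and 1 of 19 genes (DNAJB1) were higher, with medians of 0.31 and 0.11. The estimate was positive in 25 of the 30 and 13 of the 19 genes. Of 30 splicing factors of the SR and CLK type 5 were higher, namely SRSF2, SRSF3, SRSF5, SRSF7 and DDX5, and 0 of the 5 kept the call in each of the 12 fits. Without both siPFDN2 libraries before serum, 19.9% of all genes were higher and 15.3% lower. In that fit 17 of 30 ribosome biogenesis genes were higher and 1 lower, and 7 of 19 heat shock genes were higher and 2 lower. For p53 targets the counts were 16 and 4 of 24, and for the cholesterol list 16 and 1 of 25. They were 6 and 2 of 21 for interferon-stimulated genes and 11 and 7 of 30 for the splicing factors.

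**Figure D2:**
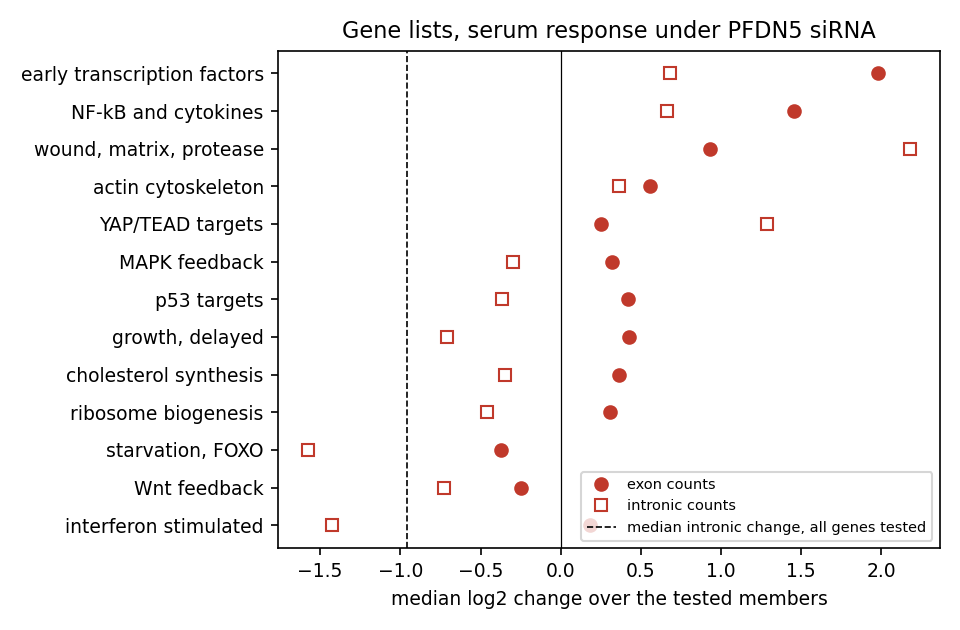
Median log2 change with serum in siPFDN5 over the tested members of 13 gene lists, for exon counts (filled circles) and intronic counts (open squares); the dashed line is the median intronic change of all genes tested (-0.96). The early transcription factors lie highest among these lists on exon counts (1.98), and their intronic median (0.68) lies above the dashed line.

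Intronic counts were then compared in genes that overlap no other gene. Over such genes the intronic share of gene-body counts was 8.32% and 7.10% in the siPFDN5 libraries before serum and 3.55% and 3.57% after it. The shares after serum were the lowest of the 12 libraries, and those before serum were among the higher ones. In siControl the share was 6.26% and 6.04% before and 10.1% and 5.57% after serum, and in siPFDN2 6.01% and 6.90% before and 6.001% and 5.25% after. The siPFDN5 shares differed by -4.15 percentage points (two-sided exact permutation p = 0.333, the smallest that 2 against 2 libraries can give). Over all genes, overlapping ones included, the siPFDN5 shares were 22.8% and 25.9% before and 17.2% and 14.8% after serum, against 15.0% and 17.3% before and 20.6% and 16.2% after in siControl and 16.2% and 16.1% before and 20.9% and 19.3% after in siPFDN2. On that measure the siPFDN5 libraries before serum were the highest of the 12, those after serum lay within the range of the others or just under it, and the siPFDN2 shares rose by 3.92 percentage points where they fell by 0.831 in genes without overlap. The median over genes of the log2 ratio of intronic to exon counts was -2.83 and -2.96 before and -3.95 and -3.93 after serum.

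**Figure D3:**
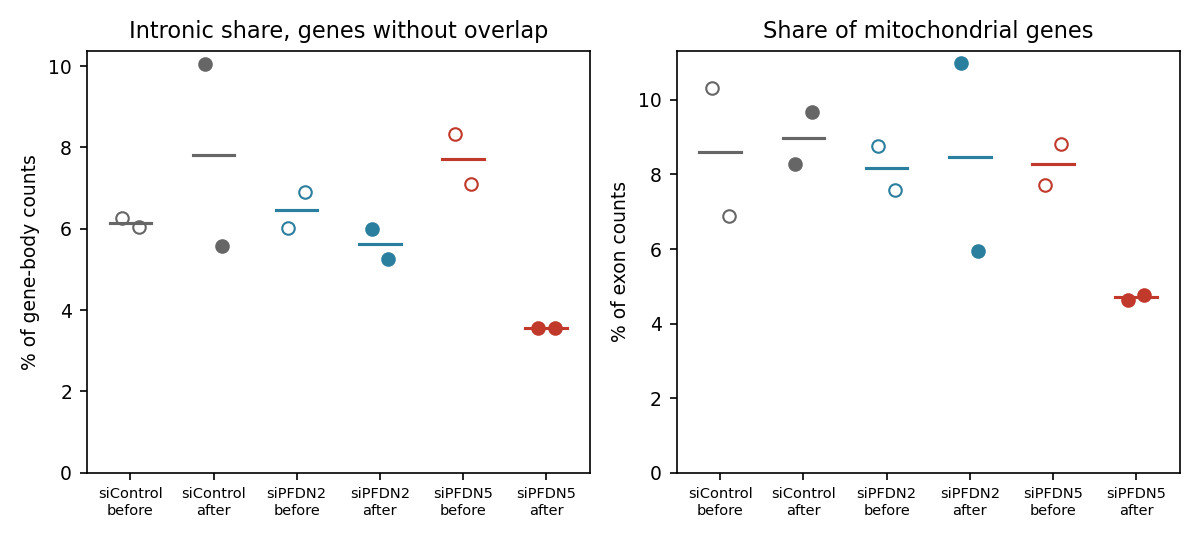
Intronic share of gene-body counts in genes without overlap (left, %) and share of exon counts from the mitochondrial genome (right, %) in each of the 12 libraries, by siRNA and time. The siPFDN5 libraries after serum have the lowest value in both panels, 3.55% and 3.57% of gene-body counts and 4.63% and 4.78% of exon counts.

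The lower intronic estimates were spread over most genes. Of 4988 genes 88.1% had a lower intronic estimate after serum, and with any single library left out the median stayed between -0.998 and -0.86. The count of lower genes was 1463, 1562, 1513 and 2013 without siPFDN5 after replicate 1, after replicate 2, before replicate 1 and before replicate 2, and the count of higher genes 74, 81, 82 and 72. Intronic counts were scaled by the exon counts of the same library. Scaled on the intronic counts themselves, which sets the median near 0 by construction, 529 genes were higher and 488 lower, so the direction of most genes is a statement relative to exon counts. In protein-coding genes the median was -0.97 (2184 of 4121 lower), in lincRNA genes -0.93 and in antisense genes that overlap no annotated gene body in the table -0.75.

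BBX, which encodes an HMG-box factor (chr3:107522936-107811324), had 42.7 and 27.8 intronic CPM before and 4.49 and 4.45 after serum. Its libraries after serum were far under those before (log2 -2.98, SE 0.43, adjusted p = 4.8e-07), while its exon counts stood at 204 and 199 before and 183 and 175 CPM after serum (log2 -0.17, adjusted p = 0.63). GNAQ, a G protein alpha subunit (chr9:77716087-78031458), fell from 31.2 and 20.9 to 3.21 and 3.85 intronic CPM (log2 -2.88, SE 0.47, adjusted p = 7.9e-06) with exon counts of 64.3 and 61.2 before and 56.8 and 54.5 CPM after serum. BCKDHB, an enzyme subunit of branched-chain amino acid breakdown, fell from 33.5 and 19.2 to 4.13 and 3.97 intronic CPM (log2 -2.70, adjusted p = 3.7e-06). In siControl the same 3 introns had higher counts in replicate 1 after serum (21.9, 25.6 and 21.8 CPM for BBX, GNAQ and BCKDHB) than in replicate 2 (6.85, 5.28 and 5.53 CPM). The other named genes with lower intronic counts were PARP8 (-2.52), PTPN4 (-2.52), ATF7IP (-2.40), NINL (-2.35), ZFAND6 (-2.29), ADAM22 (-2.25), VPS8 (-2.23), TBL1X (-2.21) and LINC00923 (-2.20), and all 12 kept the call in each of the 12 fits made with a library removed.

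The fall grew with gene length. In 5 bins of equal gene number, from the shortest to the longest genes, with lengths of 690 to 9550, 9554 to 18275, 18289 to 31395, 31460 to 61294 and 61352 to 1194150 bases, the median intronic change in siPFDN5 was -0.45, -0.77, -0.98, -1.10 and -1.38. The share of genes with a lower call went from 19.1% to 71.9%. In siControl the medians of the same bins were 0.02, 0.02, 0.14, 0.20 and 0.37, and in siPFDN2 -0.44, -0.45, -0.37, -0.28 and -0.15, so the order by length was opposite in the other siRNAs. Exon counts of siPFDN5 followed the same order over a narrower range, from 0.16 to -0.11. By exon number the medians went from -0.79 to -1.16, by GC content of the transcript from -1.18 in the lowest to -0.79 in the highest bin, and by intronic level they lay between -1.03 and -0.89. Though these last medians were alike, the share with a lower call went from 24.3% in the lowest to 65.1% in the highest bin of intronic level. The share called thus also varied with the intronic level. These are descriptions over genes, which share the same 4 libraries.

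**Figure D4:**
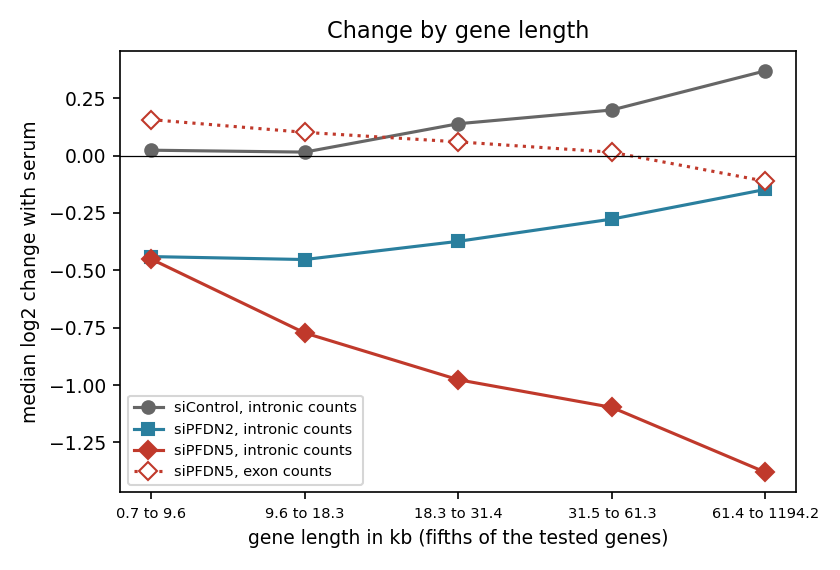
Median log2 change with serum by 5 bins of gene length (kb), for intronic counts in siControl, siPFDN2 and siPFDN5 and for exon counts in siPFDN5. The siPFDN5 intronic line goes from -0.45 in the shortest to -1.38 in the longest genes, while the siControl line goes from 0.02 to 0.37.

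Genes induced on exon counts had a positive median on intronic counts, while their ratio of intronic to exon counts was lower as in other genes. Of the 186 genes with higher exon counts that had intronic counts to test, 51 were higher and 15 lower on intronic counts (median 0.35). The same 186 genes had medians of 1.40 in siControl and 0.96 in siPFDN2. Of the 52 genes with lower exon counts 40 were lower and 0 higher on intronic counts (median -1.64), and of the 4202 genes without an exon call 2299 were lower and 38 higher (median -0.99). On the ratio the 186 induced genes had a median of -0.97 with 94 lower, and the 4202 genes without an exon call also -0.97 with 2217 lower. Exon and intronic counts come from the same libraries, and the exon calls were made on the same contrast.

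NR4A3 introns rose 20.1-fold, from 0.815 and 0.914 to 18.1 and 16.7 CPM (log2 4.33, SE 0.42, adjusted p = 2.5e-11). DUSP5 introns rose from 10.0 and 9.20 to 31.1 and 30.8 CPM (log2 1.69, SE 0.41, adjusted p = 0.00077), against 8.50 and 6.13 before and 75.2 and 61.9 CPM after serum in siControl. LAMB3 introns rose from 2.12 and 1.57 to 10.3 and 9.51 CPM (log2 2.42, adjusted p = 3e-06). The groups were apart in all 3 genes. KLF5 introns rose from 4.58 and 4.09 to 12.4 and 11.2 CPM and F3 introns from 0.835 and 0.970 to 5.71 and 4.64 CPM. For ERRFI1 the introns stood at 37.6 and 29.5 before and 37.1 and 33.2 CPM after serum (log2 0.07, adjusted p = 0.9) while exon counts rose by 1.72. ATF3 introns stood at 5.50 and 5.02 before and 8.30 and 7.95 CPM after serum (log2 0.63, adjusted p = 0.12). The other named genes with higher intronic counts were MAP2K3 (1.45), NT5E (1.29), COL12A1 (1.06), TRIB1 (0.91) and SIX4 (0.83); NT5E lost the call without siPFDN5 before replicate 2 (log2 1.20), and COL12A1, TRIB1 and SIX4 lost it without siPFDN5 after replicate 1 (0.94, 0.90 and 0.89), after replicate 2 (1.18, 0.94 and 0.78) and before replicate 2 (0.85, 0.78 and 0.73), among others.

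By list, 6 of 16 tested early transcription factors had higher and 0 lower intronic counts in siPFDN5 (median 0.68), against 13 higher in siControl (median 1.66) and 13 in siPFDN2 (median 1.47). Among 16 MAPK feedback genes 3 were higher and 5 lower. The lower ones included SPRED1, an inhibitor of RAS signalling (30.7 and 21.2 to 9.37 and 9.17 CPM, log2 -1.48), whose exon counts changed by -0.25 without a call, and SOCS5 (log2 -1.70). Among 13 NF-kB and cytokine genes 6 were higher and 1 lower, which was IL1A. Of 10 genes of starvation and FOXO 1 was higher and 7 lower (median -1.57), among them INSR, the insulin receptor (6.52 and 5.89 to 1.77 and 1.17 CPM), and YPEL5, whose introns fell (log2 -1.83) while its exon counts rose (log2 0.88). Higher calls stand beside 2.49% of all genes tested in siPFDN5, 8.04% in siControl and 4.29% in siPFDN2. The lower calls in siPFDN5 stand beside 50.3%. With each library left out in turn, 3 of the 6 calls among early transcription factors stayed in every fit. So did 7 of the 8 calls among MAPK feedback genes and 4 of the 8 among starvation and FOXO genes. Of the 7 calls among NF-kB and cytokine genes 6 were followed over these fits, and 1 stayed in all.

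**Figure D5:**
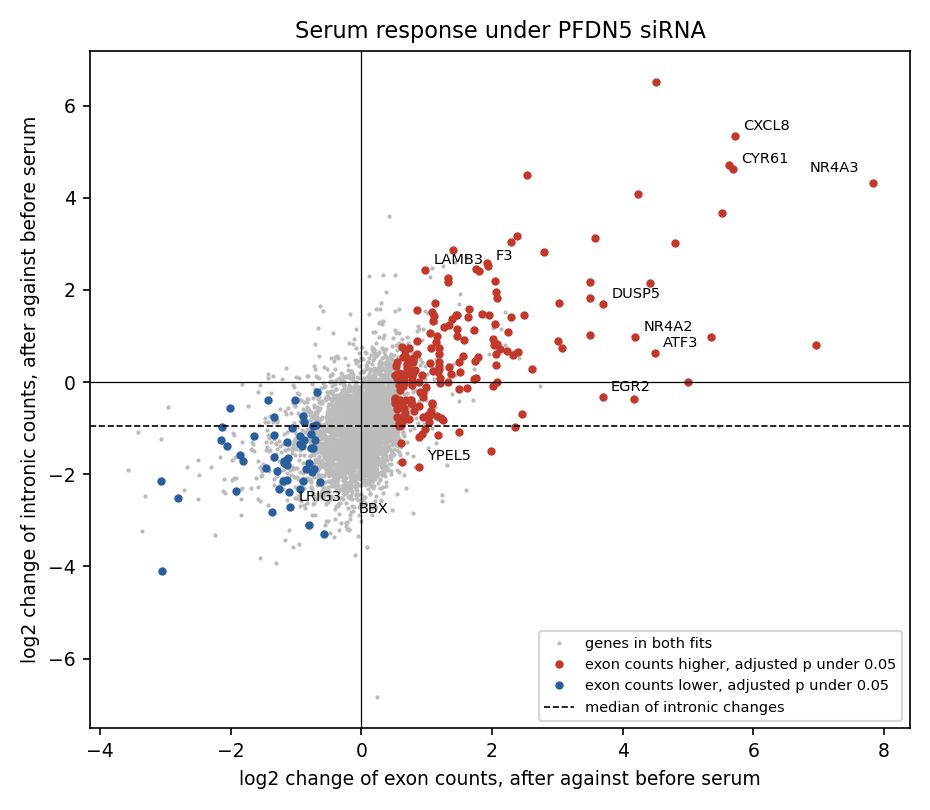
Log2 change with serum in siPFDN5 of exon counts (x axis) and intronic counts (y axis) for each gene in both comparisons, with genes called higher or lower on exon counts in colour and the median of the intronic changes as a dashed line. Most genes lie near 0 on the x axis and around -0.96 on the y axis, and the genes with higher exon counts reach up to the upper right.

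The ratio of intronic to exon counts, tested per gene with each library as its own block, fell in 2323 and rose in 22 of 4440 genes (52.3% and 0.495%), with a median of -0.96. The induced genes were among the largest falls, with -3.86 for ATF3 (adjusted p = 5.3e-08), -3.50 for NR4A3 (adjusted p = 1.8e-07) and -3.21 for NR4A2, next to -2.78 for BBX, -2.69 for GNAQ and also BCKDHB, ZFAND6 and VSNL1. For ATF3, NR4A3 and NR4A2 exon counts rose more than intronic counts did, whereas for BBX and GNAQ intronic counts fell with no exon call. A lower ratio of early transcription factors was not particular to siPFDN5. Over the 16 tested, the median was -1.12 in siPFDN5, -1.02 in siControl and -0.62 in siPFDN2. Over all genes tested it was -0.96, 0.12 and -0.31. The ratio rose in FLNA, a crosslinker of actin filaments (log2 1.64, adjusted p = 0.00037), whose introns went from 2.81 and 2.52 to 7.70 and 7.08 CPM with exon counts of 514 and 525 before and 432 and 491 after serum. It also rose in SIX4 (1.55), COL12A1 (1.504), LAMB3 (1.45), NT5E (1.03), FASN (1.01) and SETD1B (0.92), of which NT5E, FASN and SETD1B lost the call without siPFDN5 after replicate 1 (1.02, 0.77 and 0.80) and with other siPFDN5 libraries left out. Without siPFDN5 after replicate 1, after replicate 2 or before replicate 1 the lower genes numbered 1370, 1385 and 1077, and the higher genes 11, 12 and 14.

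Whether exon counts responded differently in siPFDN5 and siControl depended on the libraries and the tool used. The test of the difference called 0 of 24889 genes with edgeR (3231 at an unadjusted p under 0.05, smallest adjusted p = 0.247) and 213 with DESeq2, and against siPFDN2 it called 0 with edgeR (3118 unadjusted) and 25 with DESeq2. With 1 library removed the difference from siControl was called in 4871 and 4878 genes without siPFDN2 before replicate 1 or 2 and in 312 without siControl after replicate 2, and the difference from siPFDN2 in 11874 and 112 without siPFDN2 before replicate 1 or 2. In the early transcription factor list 27 of 34 genes had a smaller response than in siControl, with a median difference of -0.48, beside 12313 of 24889 genes with a negative difference and a median of 0.01. Named members were EGR1 (-2.29), EGR2 (-2.15), FOS (-1.94) and FOSB (-1.87), each with an adjusted p of 0.25. Without both siPFDN2 libraries before serum, 2917 genes responded more and 1951 less than in siControl (11.9% and 7.99%), and in the list 2 responded more and 12 less; the adjusted p was then 0.053 for EGR1, 0.019 for EGR2, 0.072 for FOS, 0.043 for FOSB, 0.0024 for NR4A3 (-1.03) and 0.00029 for KLF4 (-1.07). Before serum 23 of the 34 factors stood above siControl in siPFDN5 (median log2 0.30), and after serum 24 stood below it (median -0.17), in both cases with 0 calls. Without both siPFDN2 libraries before serum 9 factors were called above and 2 below siControl before serum (all genes 5.55% and 6.04%), and 2 above and 7 below it after serum (17.3% and 11.6%).

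Intronic responses scaled by exon counts differed between siRNAs. The response in siPFDN5 was lower than in siControl in 1881 of 4988 genes and higher in 3 (37.7% and 0.0601%), with a median difference of -1.11, and lower than in siPFDN2 in 684 and higher in 5 (13.7% and 0.1%), with a median of -0.60. Scaled on the intronic counts themselves, the 1884 differences from siControl became 28 and the 689 from siPFDN2 became 12, and with overlapping genes kept they became 7316 and 0. For the ratio of intronic to exon counts the difference from siControl was lower in 1709 and higher in 6 of 4440 genes (38.5% and 0.135%), and the difference from siPFDN2 was called in 8 genes. Without siControl after replicate 1, the library with the highest intronic share, 998 intronic and 953 ratio differences from siControl were called. The intronic differences from siControl numbered 1238 without siControl before replicate 2, 1167 and 1246 without siPFDN5 after replicate 1 or 2, and 1088 without siPFDN5 before replicate 1, and the ratio differences 1120 and 878 without siControl before replicate 1 or 2 and 869, 1010 and 592 without the same 3 siPFDN5 libraries. Intronic differences from siPFDN2 numbered 88 and 41 without siPFDN2 after replicate 1 or 2, 132 without siPFDN2 before replicate 2, 137 and 191 without siPFDN5 after replicate 1 or 2, 97 without siPFDN5 before replicate 1, and 1267 without either siControl library after serum. The 8 ratio calls against siPFDN2 fell to 0 without 8 of the libraries (any of siPFDN5, siPFDN2 after serum or siControl before serum) and became 895 and 889 without siControl after replicate 1 or 2. These comparisons share the siPFDN5 libraries. On their own, siControl had 401 genes higher and 90 lower on intronic counts (8.04% and 1.8%, median 0.16) and siPFDN2 214 and 704 (4.29% and 14.1%, median -0.32). Before serum the intronic counts of siPFDN5 stood 0.22 above siControl in the median, with 122 genes called higher and 5 lower, and after serum 0.90 below it (log2 -0.90), with 6 higher and 2381 lower. In these genes without overlap the median thus differed from siControl at both times, and by more after serum. Over all genes the mean intronic share was 24.3% in siPFDN5 and 16.2% in siControl before serum, and 16.0% and 18.4% after it. On that measure the larger difference was before serum.

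The lists of called genes overlapped between siRNAs. Of the 678 genes with higher exon counts in siPFDN5, 295 were also called higher in siControl, which is 43.5% of the siPFDN5 genes and 68.4% of the 431 in siControl. With siPFDN2 300 were shared (44.2% of the siPFDN5 genes and 72.1% of the 416), and 247 were called in all 3 siRNAs. Lower exon counts were called in 98 genes of siControl (0.394%) and 214 of siPFDN2 (0.86%). Of the 2511 genes with lower intronic counts 83 were among the 90 of siControl and 513 among the 704 of siPFDN2.

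Other quantities moved in the same libraries. The mitochondrial genome held 7.73% and 8.83% of exon counts in siPFDN5 before serum and 4.63% and 4.78% after it, against 6.90% to 10.3% in siControl and 5.95% to 10.998% in siPFDN2. All 13 mitochondrial messenger RNAs had a negative estimate in siPFDN5 (median -1.22), though only MT-ND3 passed the test (66.6 and 75.6 to 35.0 and 32.3 CPM, log2 -1.08, adjusted p = 0.046, lost in 10 of the 12 fits), and the list median was 0.35 in siControl and -0.25 in siPFDN2. Mitochondrial genes have no introns, so they do not enter the intronic counts. A list of 20 long genes was chosen as silent in epithelium, but 3 of them passed the filter on exon counts. It was not limited to genes without overlap. In these 20 genes the intronic CPM per kb were 0.00419 and 0.00510 before and 0.00731 and 0.00628 after serum. Over the tested genes they were 0.0881 and 0.0746 before and 0.0413 and 0.0413 after. With the mitochondrial genes and the 100 genes with the most exon counts left out, the intronic share over all genes differed by -10.6 percentage points in siPFDN5, by 2.92 in siControl and by 5.47 in siPFDN2. The parts that the mitochondrial share, the PFDN5 level after serum and the difference in depth between the siPFDN5 groups have in these results were not tested.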

How the data were processed

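The authors deposited count tables of 2 kinds, fragments per gene body and fragments per gene over its exons. The file headers name featureCounts 1.5.2 and Ensembl release 87 of GRCh38 for both, show no strand option, and show that a fragment touching more than 1 gene was given to each; HISAT2 0.12.2 and kallisto 0.43 are listed in the submitters' processing notes, and the alignment settings are not given in the sources used here. Each table has 6 further columns of no labelled sample, which were not used. The deposited files per sample hold estimated counts per transcript, although their names say TPM; summed per gene and rounded, they served as an alternative.

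Of 58051 genes 57447 were named from GENCODE 29. Exon counts were fitted with edgeR 4.0.16 in R 4.3.3 (filterByExpr, TMM scaling, robust quasi-likelihood, 6 group means over all 12 libraries, 6 residual degrees of freedom). Intronic counts were gene-body minus exon counts in genes that hold an intron and overlap no other gene, scaled by the exon library sizes. The ratio was a type-by-group term with each library as a block. Calls used a Benjamini-Hochberg adjusted p under 0.05 over all genes tested, two-sided; alternatives were DESeq2 1.42.0, other scalings and filters, a GC trend, a replicate block, overlapping genes kept, the siPFDN5 libraries alone, and each library or both siPFDN2 libraries before serum left out. CPM is relative to the TMM-scaled exon total, so levels of different genes are not comparable. In simulated data the steps called 93% of the changed genes on exon counts. On intronic counts they called 99% of the genes that were raised, and no share was computed for those lowered. On the ratio they called 51.3% of the remaining genes, which held the general intronic shift and no exon change. An intronic shift of -1 put into those data was returned as -1.01. These shares describe the simulated data only, and recovery in the sequenced libraries was not tested.

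Named genes were up to 12 per direction with the largest change on exon and on intronic counts (called, mean log2 CPM of at least 3, groups without overlap), up to 8 per direction for the ratio, PFDN5 and PFDN2, and members of the lists. The comparison, lists and members were chosen with earlier results of these data known. Promoters are RefSeq sequences.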

Additional observations from a re-analysis of the deposited data

Results flagged for a closer look

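The serum response itself differed between siRNAs in the tests of the difference (edgeR, adjusted p under 0.05 over all genes tested). On intronic counts 1884 genes differed between siPFDN5 and siControl and 689 between siPFDN5 and siPFDN2. On the ratio of intronic to exon counts 1715 genes differed from siControl and 8 from siPFDN2.

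Among the genes named for their intronic counts, the response in siPFDN5 minus that in siControl was called in 18. Of those with introns that rose in siPFDN5, the log2 difference was -1.60 for NR4A3, -1.40 for LAMB3, -1.54 for DUSP5, -1.54 for MAP2K3, -1.80 for KLF5 and -1.41 for NT5E, so relative to exon counts these genes rose less than in siControl. Of those with introns that fell, the difference was -3.05 for BBX, -3.63 for GNAQ, -3.28 for BCKDHB, -3.02 for PARP8, -2.43 for PTPN4, -1.98 for ATF7IP, -2.31 for NINL, -3.07 for ZFAND6, -2.52 for ADAM22, -1.77 for VPS8, -3.36 for TBL1X and -2.82 for LINC00923. All these values stand beside a median difference of -1.11 over the 4988 genes tested, of which 37.7% were called lower and 0.0601% higher. The genes were named for their large change in the same siPFDN5 libraries, so large differences among them partly follow from that choice. Scaled on the intronic counts themselves, 28 differences from siControl were called over all genes. In siControl, replicate 1 after serum had a far higher intronic share (10.1%) than replicate 2 (5.57%), and its part in these differences was tested only by leaving it out, which left 998 genes called.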

How the results depend on the processing

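Ranges in brackets are over the fits with 1 library left out, and the cause of a change was not tested. On exon counts the 1050 genes called became 2112 with DESeq2, 5390 with a GC trend removed (4844 with the replicate block too), 2602 without the filter, 10273 with only the siPFDN5 libraries and 8575 without both siPFDN2 libraries before serum, and ran from 185 to 8562 with 1 library left out. The difference from siControl went from 0 to 213, 18 (3 with the block), 1043 and, without both siPFDN2 libraries, 4868 (0 to 4878), and that from siPFDN2 to 25 with DESeq2, 1 and 1 with GC, and 457 without the filter (0 to 11874). Gene-body calls (3407) became 8065, 7239, 5333, 13741 and 10318 under GC, GC with block, no filter, siPFDN5 alone and without both siPFDN2 libraries (251 to 10556).

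On intronic counts the 2635 calls became 9223 with overlapping genes kept and 1017 when scaled on intronic counts (1537 to 2956), and the median -0.85, -1.13 (library size only), -0.64 (no filter) and -0.0070 (intronic scaling), or -0.998 to -0.86. Differences from siControl became 7316 and 28 with those settings (998 to 2496), and from siPFDN2 418 and 51 with GC without and with block, 0 with overlap and 12 (41 to 1267). The ratio gave 7779 calls with overlap (1091 to 2675), a median of -0.82 or, unfiltered, -0.79 (-1.03 to -0.89), 5775 differences from siControl (592 to 2421), and from siPFDN2 15 with at least 10 counts, 0 with overlap, 247 unfiltered and 0 with the block (0 to 895). The share difference in siPFDN5 was -4.15 in genes without overlap (-4.76 to -3.54), -8.32 over all genes and -10.6 without mitochondrial and top genes.

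EGR1 exon counts changed by -0.19 to 0.47 with 1 library left out, reversing without siPFDN5 after replicate 2. Scaling on intronic counts reversed POLR1A (0.030), FBL (0.039), EGR1 (0.20), CDKN1A (0.11), SLC3A2 (0.013) and TOB2 (0.099) introns. Replicates share only a number (correlation of same-numbered deviations 0.310 on exon and -0.015 on intronic counts of siPFDN5), and with the replicate block 534 higher and 266 lower exon calls were found, 525 and 246 of them shared. Summed transcript estimates gave 776 exon calls. Over all alternatives, single genes kept their side of the threshold 3002 times on exon, 1786 times on intronic and 41 times on gene-body counts, and 1439 times on the ratio. Single genes lost the call 817 times and gained it 12 times. Intronic counts passed the filter in 4988 of 13190 eligible genes, so the other genes had too few counts for a test.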
